A study of Mus musculus with 15 samples.

Results

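Focal adhesions and podosomes are the structures through which a cell couples integrins, its receptors for matrix, to the actin cytoskeleton, and 38 genes of their scaffolds, kinases and actin linkers were followed here by their RNA. The 38 genes were found by exact gene symbol in both deposited read tables, among 34245 genes of the differentiation table and 25965 genes of the IL4 table. The cells came from bone marrow of male C57BL/6 mice aged 8 to 10 weeks, with no genetic change given, and grew in CSF-1, which drives macrophage survival and differentiation. Non-adherent precursors were taken after 2 days in a low dose of CSF-1 (0.6 ng/ml), with 15% fetal calf serum (FCS). Immature macrophages had 4 further days at 12 ng/ml in 10% FCS. Mature macrophages were at day 10, after 1 day at 0.6, 2 days at 12 and 7 days at 120 ng/ml CSF-1. IL4 macrophages were mature cells given 20 ng/ml IL4, a cytokine of type 2 immunity, for 48 h at 120 ng/ml CSF-1, and unstimulated macrophages were kept for the same 48 h without it. Each of the 5 groups had 3 libraries, titled by mouse 1 to 3. CSF-1 concentration, days in culture and, between precursors and the later stages, serum changed together, so their effects cannot be told apart.

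An integrin-based adhesion is built in layers. Talin and kindlin hold the integrin tail, vinculin and the actinins tie it to actin, LIM proteins such as paxillin and zyxin add signalling sites, and kinases of the FAK and Src families act on them. Macrophages also form podosomes, short-lived contacts with an actin core that depends on WASP and cortactin-type proteins, a ring of adhesion proteins around it, and TKS scaffolds that bring matrix-cutting proteases. Several of these components exist as related genes, with one form typical of blood cells and another of most other tissues.

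The 9 differentiation libraries held 7897769 to 22167294 reads in genes, and the 6 IL4 and unstimulated libraries held 2408531 to 4214266. Levels are given as CPM, the read count over the library total scaled by TMM, and the separately made tables are not compared with each other. The 5 macrophage markers summed to 1107 to 1502 CPM in precursors, 5350 to 8738 CPM in immature and 5530 to 7480 CPM in mature macrophages. Csf1r led the list in precursors and immature macrophages, and Adgre1 in mature macrophages. The 12 neutrophil markers summed to 13779 to 20670 CPM in precursors, led by S100a9, and 231 to 285 CPM in immature macrophages, led by Mmp8. In mature macrophages they summed to 0.729 to 5.13 CPM, and 8 of the 12 (Mpo, Elane and S100a9 among them) were at 0 reads. Sums in the same order of stages were 207 to 470, 15.5 to 16.9 and 3.8 to 5.51 CPM for 8 megakaryocyte and platelet genes. They were 298 to 426, 2.13 to 2.94 and 0 to 0.117 CPM for 8 B cell genes, and 191 to 241, 4.1 to 5.88 and 7.25 to 9.47 CPM for 8 genes of mast cells and eosinophils. The 8 stromal genes summed to 20.1 to 21.3, 1.02 to 2.29 and 0.234 to 0.612 CPM. The 6 proliferation genes summed to 2074 to 2255, 229 to 1214 and 471 to 1011 CPM. Every difference from precursors given below moves with these other cell types, their part in it was not tested, and in such bulk samples fewer cells of a type and less RNA per cell cannot be told apart. Mature library 3 stood at least 2-fold above both other mature libraries in 614 of 13359 genes and 5 members (Parvb, Parvg, Zyx, Sh3pxd2b and Wipf1), so results that turn on it are given with and without it. Mature library 1 stood apart in the same way in 221 genes above and 443 below, with Src among those above, and immature library 1 in 109 above and 504 below, with no member.

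In immature macrophages against precursors, RNA of the adhesion machinery was more often lower than higher: among 36 members tested, 9 were higher, 17 lower and 10 not called (edgeR's quasi-likelihood test, Benjamini-Hochberg adjusted p under 0.05 over all genes tested). The members called made up 72.2% of those tested, against 49.2% of all 13359 genes, with 22.5% of all genes higher and 26.6% lower. The median log2 fold change was -0.62 over the members and -0.072 over all genes. Differences between groups are log2 fold changes with their SE, and levels in CPM are means with their SD (n = 3) or single libraries. In mature against immature macrophages, 5 members were higher, 4 lower and 27 not called, which is 25% against 14.9% of all genes (7.52% higher, 7.38% lower). In mature macrophages against precursors, 10 were higher, 14 lower and 12 not called, 66.7% against 54.3% of all genes (25.8% higher, 28.5% lower). These 3 comparisons share groups and so are not independent. Of the remaining members, Fermt2, which encodes the kindlin of tissues other than blood, had 0 reads in all 15 libraries, and Bcar1, the widely expressed docking protein p130Cas, had 12 reads in the 9 differentiation libraries and 0 in the others.

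**Figure D1:**
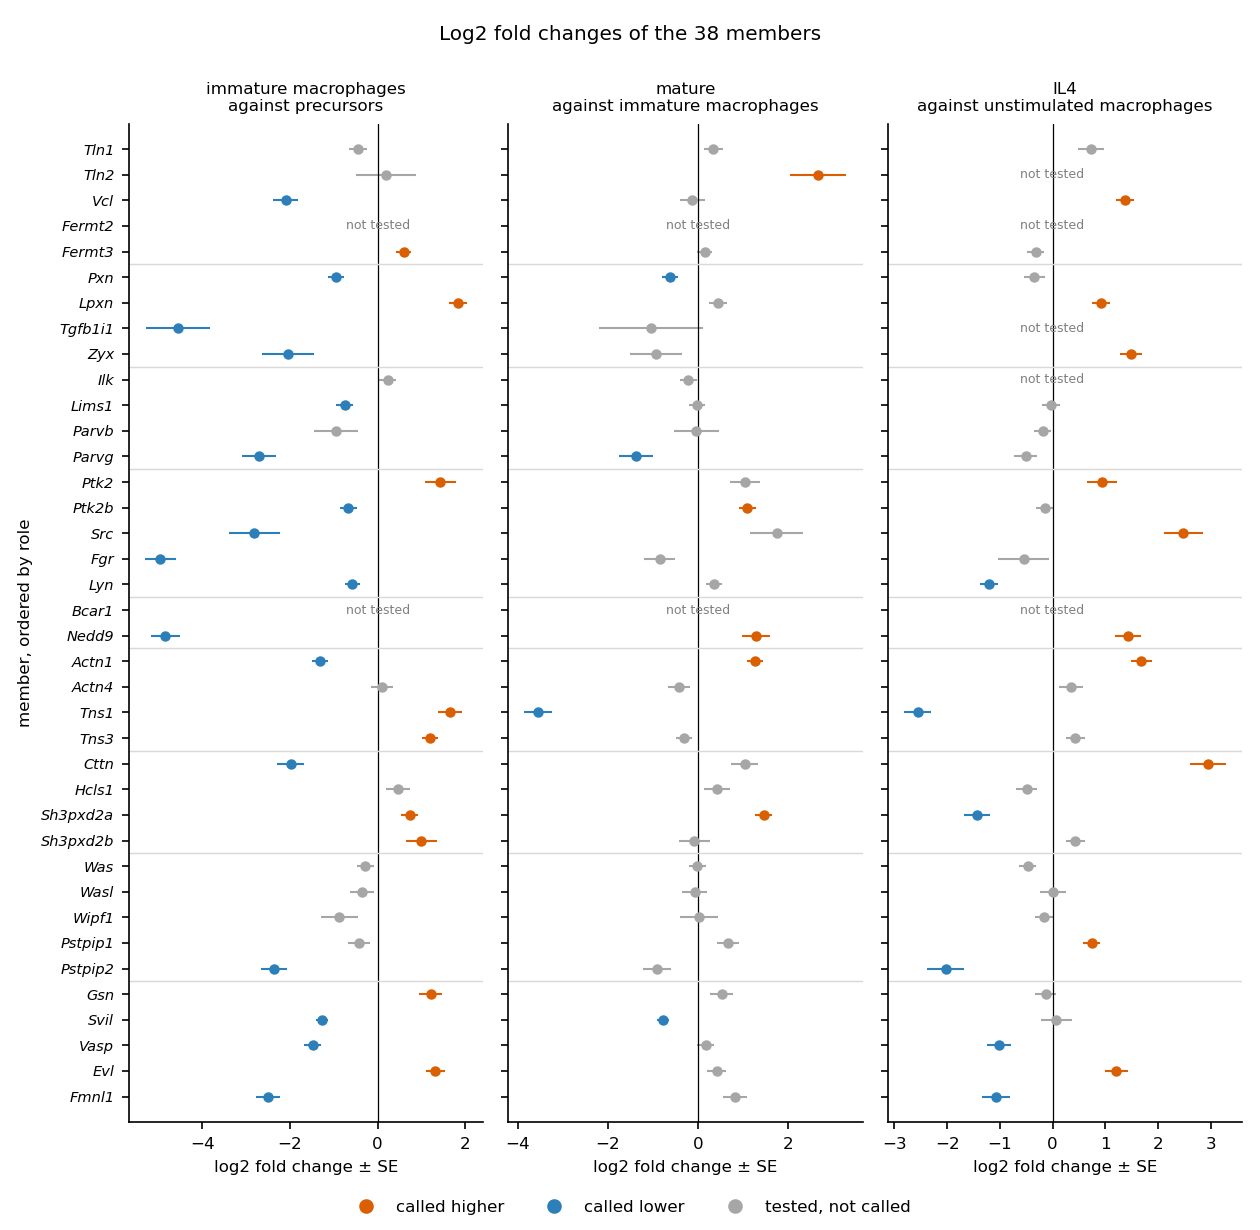
Log2 fold change with its standard error (horizontal axes) for the 38 members, ordered by role from integrin linkers at the top to actin filament regulators at the bottom, in 3 comparisons of 3 against 3 libraries. Orange points were called higher, blue lower and grey not called at an adjusted p under 0.05; blue points outnumber orange ones in immature macrophages against precursors (17 and 9), and orange ones outnumber blue with IL4 (10 and 6).

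Per kb of annotated exon, the most abundant members in precursors were Tln1 (188 CPM per kb), Gsn (135) and Vasp (102). In immature macrophages they were Gsn (312), Tln1 (137) and Lpxn (126), and in mature macrophages Gsn (447), Tln1 (174) and Lpxn (171). Talin-1, encoded by Tln1, had 1722, 1948 and 1862 CPM in precursors, 1051, 1389 and 1597 CPM in immature and 1815, 1723 and 1563 CPM in mature macrophages. All immature libraries lay below all precursor libraries, but the log2 fold change of -0.45 ± 0.21 (SE) was not called (adjusted p = 0.0964), while DESeq2 called it (0.0269). Mature macrophages overlapped both other stages (0.34 ± 0.21 against immature macrophages). The related Tln2 was near the detection limit, at 22, 14 and 102 reads per group in stage order. It was called higher in mature than in immature macrophages (3.14 ± 0.943 and 0.514 ± 0.444 CPM, SD, n = 3, log2 fold change 2.66 ± 0.63, adjusted p = 0.0172). That call was lost without immature library 1 (0.0798), immature library 2 (0.0915) or mature library 2 (0.0604), and the log2 fold change was 3.47 without immature library 3. Fermt3, the kindlin of blood cells, was higher in immature macrophages (620 ± 9 CPM) than in precursors (408 ± 47.5 CPM), with a log2 fold change of 0.60 ± 0.17 and an adjusted p of 0.0126, or 0.0611 without precursor library 1.

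Vcl encodes vinculin, the link from talin to actin. It had 165, 159 and 202 CPM in precursors, 28.7, 38.2 and 55.9 CPM in immature and 35.5, 26.1 and 49.8 CPM in mature macrophages. All later libraries lay below all precursor libraries, with log2 fold changes of -2.10 ± 0.29 (adjusted p = 0.000204) for immature and -2.24 ± 0.29 (adjusted p = 0.000102) for mature macrophages. Exons of Vcl overlap those of Ap3m1 on the other strand by 2090 bases, and whether reads were counted by strand is not given in the sources used here, so reads of the pair cannot be told apart. The 250 bases before its start (RefSeq, GRCm38.p6, chr14:20929148-20929397, + strand) are shown because they hold a CArG box, the element bound by serum response factor, which is known to control many actin cytoskeleton genes. The box (CC, then 6 bases of A or T, then GG) stands in capitals, 227 to 218 bases before the start, and reads the same on both strands. This choice was made with the values of Vcl known.
Vcl: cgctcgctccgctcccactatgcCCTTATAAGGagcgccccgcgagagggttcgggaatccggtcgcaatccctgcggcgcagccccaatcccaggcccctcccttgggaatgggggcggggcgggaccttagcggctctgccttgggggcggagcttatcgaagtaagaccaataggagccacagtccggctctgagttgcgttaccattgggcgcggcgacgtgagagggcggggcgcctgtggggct
Of all 32841 RefSeq promoters searched over the same 250 bases on both strands, 1.47% held a CArG box. Among the 28 members with a promoter in the table, counting a member if any of its promoters matched, Fermt2 and Vcl held it. The members not matched there were Ptk2b, Lyn, Pxn, Ptk2, Cttn, Tln2, Pstpip2, Tgfb1i1, Svil and Sh3pxd2a. A match describes letters and does not show binding.

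Among LIM adaptors, paxillin and its relative in blood cells went in opposite directions. Pxn (paxillin) had 294, 316 and 357 CPM in precursors, 186, 173 and 141 CPM in immature and 107, 94.1 and 124 CPM in mature macrophages. Lpxn (leupaxin) had 58.5, 73.3 and 57.6 CPM in precursors, 216, 221 and 237 CPM in immature and 379, 235 and 303 CPM in mature macrophages. Neither gene's later libraries overlapped its precursor libraries. Immature macrophages differed from precursors by a log2 fold change of -0.95 ± 0.18 for Pxn (adjusted p = 0.0015) and 1.83 ± 0.21 for Lpxn (adjusted p = 5.43e-05). Between the macrophage stages, Pxn was lower still in mature than in immature macrophages (-0.62 ± 0.18, adjusted p = 0.0414). That call did not hold with the mouse number as a block (0.0796) or without any 1 of immature libraries 1 and 2 and mature libraries 1 and 2 (0.0852 to 0.145).

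Zyx encodes zyxin, a LIM protein of mature, tension-bearing adhesions. It had 276, 290 and 351 CPM in precursors, 100, 71.7 and 49.5 CPM in immature and 15.1, 15.3 and 85.5 CPM in mature macrophages. Both later stages lay below precursors, with log2 fold changes of -2.05 ± 0.59 (adjusted p = 0.0145, or 0.0557 without immature library 3) and -2.98 ± 0.61 (adjusted p = 0.00195). Mature library 3 was within the immature range, and mature macrophages were called lower than immature ones only without it (log2 fold change -2.28, adjusted p = 0.0015, against -0.93 ± 0.58, adjusted p = 0.309, with it). The difference from precursors was -4.32 without that library. Tgfb1i1 (Hic-5, a paxillin relative of stromal and muscle cells) had 169 reads in precursors, 4 in immature and 2 in mature macrophages. Its log2 fold change in immature macrophages against precursors was -4.56 ± 0.73 (adjusted p = 0.000525). The sums of stromal, neutrophil, platelet, B cell and mast cell markers given above were all highest in precursors. Acta2 made up most of the stromal sum there, at 16.6, 19 and 16.7 CPM of 20.7, 21.3 and 20.1 CPM. Dcn and Cxcl12 of that list had 0 reads in precursors, and Cxcl12 had reads in immature macrophages. Only 3 of the 8 stromal genes passed the filter, and a part of stromal cells in the result of Tgfb1i1 was not tested.

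The complex of integrin-linked kinase joins Ilk, the adaptor Lims1 (PINCH-1) and a parvin. Ilk stayed within 119 to 181 CPM in all 9 libraries and was called in none of the comparisons (0.23 ± 0.19 in immature macrophages against precursors), although 2106 of its exonic bases overlap Taf10 on the other strand. Lims1 was lower in immature macrophages (144 ± 8.3 CPM) than in precursors (242 ± 51.7 CPM), with a log2 fold change of -0.75 ± 0.19 and an adjusted p of 0.00695. Parvg, the parvin of blood cells, had 211, 223 and 225 CPM in precursors, 19, 38.5 and 44.1 CPM in immature and 7.93, 9.59 and 21.5 CPM in mature macrophages. It was lower by a log2 fold change of -2.70 ± 0.39 in immature (adjusted p = 0.000285) and -4.07 ± 0.42 in mature macrophages (adjusted p = 2.13e-05), each against precursors. The difference of mature from immature macrophages (-1.37 ± 0.38, adjusted p = 0.0366) comes from libraries that overlap, through mature library 3. It was lost without any 1 of immature libraries 2 and 3 and mature libraries 1 and 2 (0.085 to 0.118), and when those 6 libraries were fitted alone (0.0897). Without mature library 3 it was -1.95 (adjusted p = 0.00482). Parvb had 54.1 to 61.7 CPM in precursors, 26 to 35.1 CPM in immature macrophages and 10, 17 and 59.5 CPM in mature macrophages. Parvb was not called in mature macrophages against precursors (adjusted p = 0.113), but it was called lower without mature library 3 (-2.09, adjusted p = 0.000118) and with the mouse number as a block (0.0297). Without library 3 it was also called lower in mature than in immature macrophages (-1.15, adjusted p = 0.0131). Immature macrophages lay below precursors in all libraries (-0.95 ± 0.50, adjusted p = 0.137), and were called lower when those 6 libraries were fitted alone (0.00122).

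FAK, encoded by Ptk2, is the main kinase of focal adhesions in most cells, and Pyk2, encoded by Ptk2b, is its relative in blood cells. Ptk2 had 4.94, 9.85 and 6.74 CPM in precursors, 11.4, 20 and 27.5 CPM in immature and 37.4, 48.9 and 34.2 CPM in mature macrophages. The 3 stages did not overlap. It was higher by a log2 fold change of 1.43 ± 0.35 in immature (adjusted p = 0.00595) and 2.47 ± 0.35 in mature macrophages (adjusted p = 0.000195), each against precursors. Between the macrophage stages the difference of 1.04 ± 0.34 missed the threshold (adjusted p = 0.0627) and passed it with the mouse number as a block (0.0392) or without immature library 3 (0.0313). Ptk2b had 234, 259 and 249 CPM in precursors, 166, 152 and 149 CPM in immature and 342, 255 and 398 CPM in mature macrophages. It was lower in immature macrophages than in precursors (-0.67 ± 0.19, adjusted p = 0.0127, or 0.0556 and 0.0543 without immature libraries 2 and 3) and higher in mature than in immature macrophages (1.09 ± 0.19, adjusted p = 0.0036). Per kb of exon, Ptk2b remained above Ptk2 in every group, by 44.8 against 3.4 CPM per kb in mature macrophages.

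Of the Src family members in the list, Fgr showed the largest difference. Fgr, a kinase of myeloid cells, had 201, 207 and 248 CPM in precursors, 8.59, 7.57 and 4.73 CPM in immature and 2.02, 3.98 and 5.66 CPM in mature macrophages. Immature macrophages were lower by a log2 fold change of -4.96 ± 0.35 (adjusted p = 3.94e-06). The difference of mature from immature macrophages (-0.85 ± 0.34, adjusted p = 0.117) passed the threshold only without mature library 3 (-1.26, adjusted p = 0.0283). Src had 16.3, 21.5 and 32.3 CPM in precursors, 5.12, 2.46 and 2.17 CPM in immature and 21.9, 4.91 and 6.2 CPM in mature macrophages. It was lower in immature macrophages than in precursors (-2.81 ± 0.58, adjusted p = 0.00263), while mature library 1 lay within the precursor range. Mature macrophages were not called against precursors (-1.07 ± 0.53, adjusted p = 0.111), and were called lower without that library (-2.05, adjusted p = 0.00303) or with the block (0.0411). Against immature macrophages they were not called (1.74 ± 0.58, adjusted p = 0.0675), and were called higher without mature library 2 (0.0424) or 3 (0.04). Over all fits that left out 1 library, that log2 fold change ran from 0.75 to 2.25, with adjusted p up to 0.289. Lyn, the most abundant of the 3 per kb, had 324 to 352 CPM in precursors, 206 to 234 CPM in immature and 249 to 329 CPM in mature macrophages. Its difference in immature macrophages, -0.58 ± 0.17 (adjusted p = 0.0146), was lost without immature library 2 (0.0791).

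Nedd9 encodes the Cas-family docking protein that FAK and Src phosphorylate. Its level was 143, 120 and 178 CPM in precursors, 4.26, 4.5 and 6.65 CPM in immature and 16.2, 13.8 and 7.5 CPM in mature macrophages. Immature macrophages were lower than precursors by a log2 fold change of -4.85 ± 0.33 (adjusted p = 3.33e-06). Mature macrophages were higher than immature ones by 1.29 ± 0.31 (adjusted p = 0.018), and this call was lost without any 1 of immature libraries 1 and 2 and mature libraries 1 and 2 (0.0527 to 0.0814). Mature macrophages remained lower than precursors (-3.56 ± 0.31, adjusted p = 7.08e-06).

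**Figure D2:**
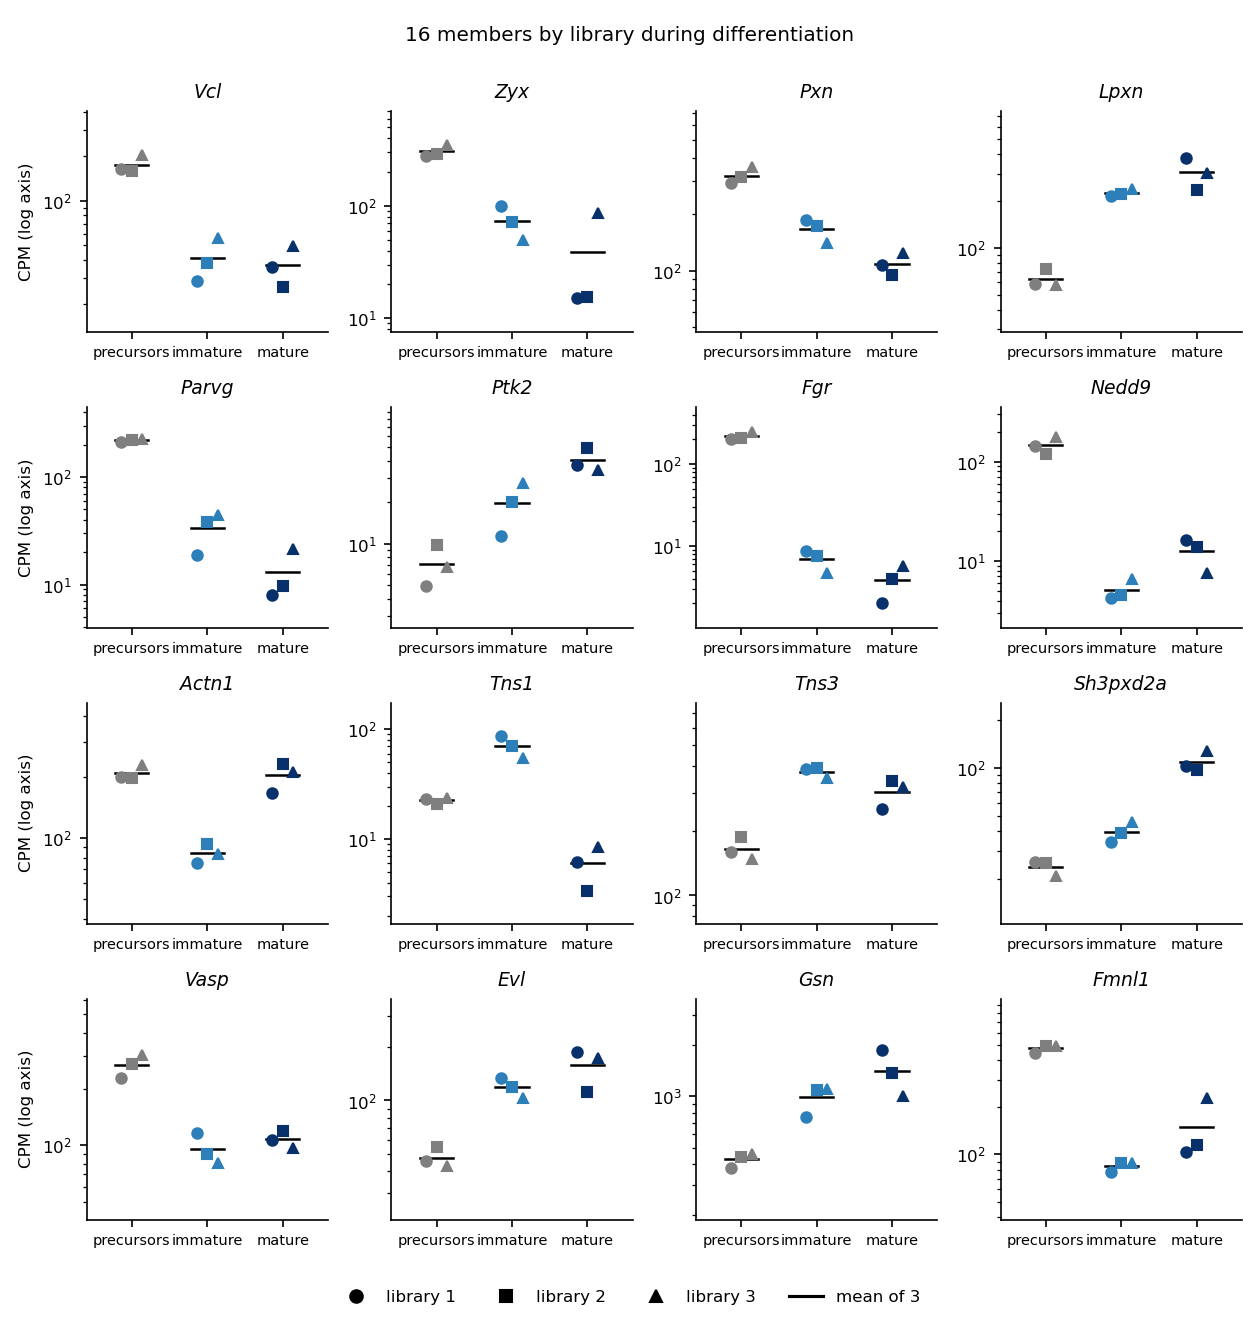
CPM (log axis, own range in each panel) of 16 members in the 3 libraries of precursors, immature and mature macrophages; symbols mark libraries 1 to 3 and lines the group means. Vcl, Parvg, Fgr, Nedd9 and Fmnl1 are lower in all later libraries than in all precursor libraries, Lpxn, Ptk2, Sh3pxd2a, Evl and Gsn are higher, and Tns1 peaks in immature macrophages at 70.8 CPM on average.

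The actinins and tensins that bundle actin or tie it to integrins differed in their courses. Actn1 (alpha-actinin-1) had 201, 198 and 230 CPM in precursors, 75.5, 93.8 and 83.3 CPM in immature and 167, 233 and 211 CPM in mature macrophages. It was lower in immature macrophages than in precursors (-1.32 ± 0.18, adjusted p = 0.000192) and higher in mature than in immature macrophages (1.27 ± 0.18, adjusted p = 0.00123), with mature macrophages and precursors overlapping (-0.042 ± 0.18). Its relative Actn4 was called in none of these comparisons (203 ± 40, 218 ± 38.5 and 163 ± 48.8 CPM in stage order). Tns1 (tensin-1) took the opposite course to Actn1. It had 23.2, 20.8 and 23.7 CPM in precursors, 87.2, 70.1 and 55 CPM in immature and 6.15, 3.39 and 8.5 CPM in mature macrophages. No 2 stages overlapped, with log2 fold changes of 1.65 ± 0.28 for immature macrophages against precursors (adjusted p = 0.000834) and -3.54 ± 0.31 for mature against immature macrophages (adjusted p = 8.5e-05). Tns3 had 159, 187 and 148 CPM in precursors, 384, 391 and 349 CPM in immature and 252, 338 and 319 CPM in mature macrophages. It was higher in immature macrophages (1.19 ± 0.18, adjusted p = 0.000376) and in mature macrophages (0.88 ± 0.18, adjusted p = 0.00182), each against precursors.

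Of the 4 genes of podosome scaffolds and cortactins, 2 were higher and 1 lower in immature macrophages than in precursors. This is 75% called, against 49.2% of all genes. Sh3pxd2a, which encodes TKS5, the scaffold required for podosome formation and matrix degradation, had 25.5, 25.2 and 20.9 CPM in precursors, 34.1, 38.9 and 45.8 CPM in immature and 102, 97.2 and 128 CPM in mature macrophages. Each stage lay above the one before, by log2 fold changes of 0.73 ± 0.19 (adjusted p = 0.00802) and 1.46 ± 0.19 (adjusted p = 0.000723). Sh3pxd2b, which encodes the related TKS4, had 190, 158 and 127 CPM in immature macrophages, against 83.2, 97.3 and 56.4 CPM in precursors. Its difference of 1.00 ± 0.35 (adjusted p = 0.0348) did not hold with the block (0.0562) or without any 1 of precursor libraries 1 and 3 and immature libraries 1 and 2 (0.0726 to 0.119). In mature macrophages it had 101, 103 and 246 CPM, which was called higher than precursors (0.92 ± 0.35, adjusted p = 0.044) but not without mature library 3 (0.37, adjusted p = 0.216), without precursor library 1 (0.089) or 3 (0.146), or with the block (0.0851). Cttn (cortactin) had 10.9, 8.2 and 15.3 CPM in precursors, 2.84, 2.87 and 2.94 CPM in immature and 4.7, 7.25 and 5.74 CPM in mature macrophages. Immature macrophages were lower than precursors by a log2 fold change of -1.98 ± 0.31 (adjusted p = 0.000464), and the difference of mature macrophages from precursors (-0.96 ± 0.29, adjusted p = 0.018) was lost without precursor library 3 (0.0915) or mature library 1 (0.0568). Hcls1, the cortactin relative of blood cells known as HS1, had 195 to 211 CPM in precursors, 206 to 372 CPM in immature and 246 to 506 CPM in mature macrophages. Mature macrophages were called higher than precursors (0.88 ± 0.28, adjusted p = 0.0207), but not without mature library 1 (0.0824) or any 1 precursor library (0.0502 to 0.0649).

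WASP, its partner WIP and N-WASP drive actin branching in the podosome core, and Pstpip2 was the one gene of this group called. In immature macrophages against precursors this is 20% of the group, against 49.2% of all genes. Was (152 ± 15.1, 125 ± 16.5 and 123 ± 23.4 CPM in stage order) and Wasl (11.2 ± 1.61, 8.71 ± 0.336 and 8.3 ± 2.77 CPM) were called in none of the 3 comparisons. Wipf1 had 158, 150 and 184 CPM in precursors, 95.5, 91.5 and 81.3 CPM in immature and 43.5, 52.4 and 176 CPM in mature macrophages. It was not called in mature macrophages against precursors (-0.86 ± 0.43, adjusted p = 0.112), and was called lower without mature library 3 (-1.77, adjusted p = 3.97e-05) and with the block (0.0484). Immature macrophages lay below precursors (-0.87 ± 0.43, adjusted p = 0.114) and were called lower when those 6 libraries were fitted alone (0.0011). In mature against immature macrophages its log2 fold change was 0.019 ± 0.43 with that library and -0.90 without it (adjusted p = 0.00799). Pstpip2, an F-BAR protein of macrophages, had 26.1, 21 and 20.1 CPM in precursors, 6.07, 3.68 and 3.2 CPM in immature and 2.19, 2.81 and 2.07 CPM in mature macrophages. It was lower than in precursors in immature (-2.36 ± 0.29, adjusted p = 0.0001) and mature macrophages (-3.26 ± 0.31, adjusted p = 1.19e-05). Its relative Pstpip1, which binds WASP, averaged 165, 123 and 195 CPM in stage order and was called between mature and immature macrophages only without mature library 3 (0.87, adjusted p = 0.0221), and between immature macrophages and precursors only when those 6 libraries were fitted alone (-0.42, adjusted p = 0.0319).

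All 5 actin filament regulators were called between precursors and immature macrophages, 2 higher and 3 lower in the latter. In that comparison 49.2% of all genes were called. Gsn (gelsolin, which severs filaments) had 378, 441 and 461 CPM in precursors, 755, 1091 and 1109 CPM in immature and 1866, 1367 and 1003 CPM in mature macrophages. It was higher in immature (1.21 ± 0.26, adjusted p = 0.00322) and mature macrophages (1.73 ± 0.26, adjusted p = 0.000307) than in precursors. Fmnl1, a formin of blood cells that elongates filaments, had 447, 493 and 491 CPM in precursors, 76.7, 88.1 and 87.8 CPM in immature and 104, 115 and 228 CPM in mature macrophages. Its log2 fold changes from precursors were -2.50 ± 0.28 in immature (adjusted p = 5.87e-05) and -1.68 ± 0.28 in mature macrophages (adjusted p = 0.000487). Mature macrophages were not called against immature ones (0.82 ± 0.27, adjusted p = 0.0659), and were called higher without mature library 1 (0.0324), while the log2 fold change was 0.38 without mature library 3 (adjusted p = 0.123). Svil (supervillin, of the podosome cortex) had 213, 208 and 231 CPM in precursors, 90, 92 and 87.8 CPM in immature and 54.9, 47.9 and 54.3 CPM in mature macrophages. No 2 stages overlapped, and each was lower than the one before, by log2 fold changes of -1.27 ± 0.14 (adjusted p = 5.86e-05) and -0.78 ± 0.14 (adjusted p = 0.00527).

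Vasp and Evl are members of the Ena/VASP family, which shields growing filament ends from capping. Vasp had 228, 273 and 303 CPM in precursors, 117, 89.5 and 80.4 CPM in immature and 107, 120 and 96.8 CPM in mature macrophages. Evl had 45.7, 54.4 and 42.4 CPM in precursors, 134, 119 and 103 CPM in immature and 188, 111 and 173 CPM in mature macrophages. Precursor libraries stood apart from all later ones for both genes, on opposite sides. Immature macrophages differed from precursors by a log2 fold change of -1.48 ± 0.20 for Vasp (adjusted p = 0.000155) and 1.32 ± 0.22 for Evl (adjusted p = 0.000647), and neither gene was called between mature and immature macrophages (0.17 ± 0.19 and 0.41 ± 0.21). The 250 bases before their starts are shown because this pair was called in opposite directions in 3 of the 4 comparisons (RefSeq, GRCm38.p6). Those of Vasp lie at chr7:19271855-19272104 on the - strand, and the 2 of Evl at chr12:108554470-108554719 and chr12:108605516-108605765 on the + strand. Capitals mark the core letters of PU.1, GAGGAA on either strand, a factor known to specify macrophages.
Vasp: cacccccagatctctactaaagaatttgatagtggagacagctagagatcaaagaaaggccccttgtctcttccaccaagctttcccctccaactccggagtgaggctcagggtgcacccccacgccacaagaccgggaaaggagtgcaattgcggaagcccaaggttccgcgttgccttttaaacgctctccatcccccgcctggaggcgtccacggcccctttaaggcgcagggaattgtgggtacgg
Evl, upstream start: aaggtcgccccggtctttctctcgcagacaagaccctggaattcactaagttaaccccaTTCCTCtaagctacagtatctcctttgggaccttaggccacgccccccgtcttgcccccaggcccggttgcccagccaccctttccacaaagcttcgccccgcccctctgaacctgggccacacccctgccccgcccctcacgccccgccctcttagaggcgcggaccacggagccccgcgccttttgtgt
Evl, downstream start: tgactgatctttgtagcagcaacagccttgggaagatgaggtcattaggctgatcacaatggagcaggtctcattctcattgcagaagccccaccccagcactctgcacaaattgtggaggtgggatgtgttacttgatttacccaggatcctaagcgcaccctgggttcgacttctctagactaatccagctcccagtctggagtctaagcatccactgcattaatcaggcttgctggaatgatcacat
The upstream start of Evl held these letters 191 to 186 bases before the start, and the other 2 windows did not. They are common letters, held by 23.3% of all promoters searched. Counting a member if any of its promoters matched, 9 of the 28 members with a promoter in the table held them. The first share counts promoters and the second counts genes, some with several promoters, so they are not alike.

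The ratio of related members was taken within each library (log2 of CPM per kb, each + 0.1), which for genes with few reads depends on the constant added. Of 14 pairs in which both genes could be measured, the largest shifts between immature macrophages and precursors were for Vasp over Evl and Pxn over Lpxn. Vasp over Evl averaged -0.15 ± 0.11 in immature macrophages and 2.66 ± 0.29 in precursors (SD, n = 3 each). Pxn over Lpxn was -2.40, -2.54 and -2.94 in immature macrophages, against 0.13, -0.088 and 0.44 in precursors. Per length, Vasp thus held slightly fewer reads than Evl in immature macrophages and more in precursors, and Pxn held fewer than Lpxn in immature macrophages and about as many in precursors. Cttn over Hcls1 differed by -2.23 on the log2 scale. Src over Lyn was lower, by -2.14, while Src over Fgr was higher, by 2.21. Ptk2 over Ptk2b and Pstpip1 over Pstpip2 each differed by 1.94. In the pairs named so far no immature library overlapped a precursor library. This gives each an exact permutation p of 0.1, the smallest that 3 against 3 allows, and 0.127 adjusted over the 14 pairs. Tns1 over Tns3, Sh3pxd2a over Sh3pxd2b and Was over Wasl overlapped. Ratios of other genes were not measured, so there is no reference for these results. The pairs hold members called above, so their ratios are not separate evidence.

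**Figure D3:**
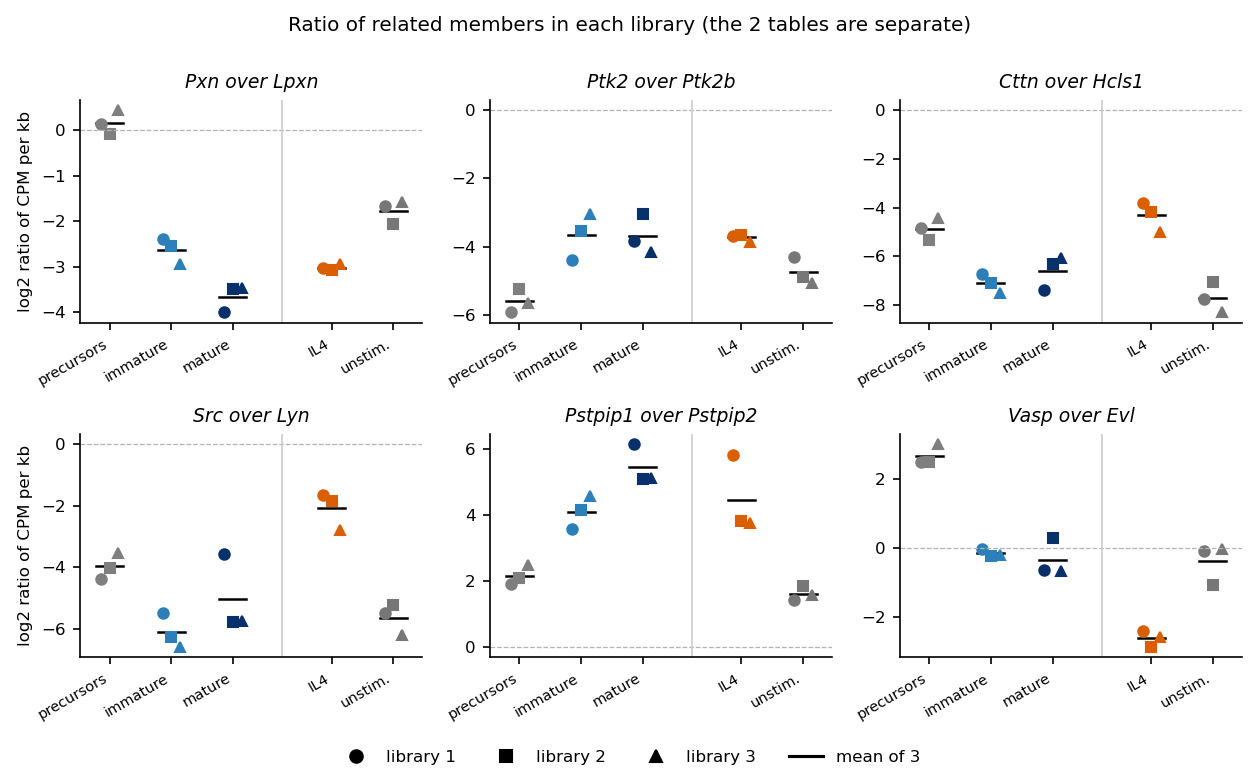
Log2 ratio of CPM per kb (vertical axis) of 6 pairs of related members in each of the 15 libraries; symbols mark libraries 1 to 3, lines the group means, the dashed line equal levels and the vertical line the border between the separate tables. Vasp over Evl averages 2.66 in precursors and is at or below 0.28 in the immature and mature libraries, and Src over Lyn is higher in IL4 macrophages (-2.78 to -1.65) than in unstimulated ones (-6.20 to -5.23).

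Genes around the members were counted from 5 lists, whose shares called (33.3%, 40%, 46.7%, 50% and 50%, in the order given) were near or under the 49.2% of all genes in immature macrophages against precursors. For immature macrophages against precursors, 3 of 9 Arp2/3 subunits, the complex that branches actin, were higher and 0 lower, among them Arpc3 (366 ± 25.5 and 152 ± 17.9 CPM) and Arpc1b (1421 ± 67 and 724 ± 25.5 CPM). Of 10 other Src family kinases and their regulators, 0 were higher and 4 lower, among them Pag1 (45.2 ± 4.9 and 256 ± 21.3 CPM) and the B cell kinase Blk (0 reads in immature macrophages and 27.9 ± 7.92 CPM in precursors). Among 15 tested paralogs of members, 3 were higher and 4 lower, including the formins Fmnl2 (5.54 ± 1.19 and 36.3 ± 1.26 CPM) and Fmnl3 (30.4 ± 5.79 and 116 ± 14 CPM), on the same side as Fmnl1. Among 18 genes of adhesion signalling to the cytoskeleton, 5 were higher and 4 lower, with Arhgef7 higher (0.95 ± 0.18) and Pak2 lower (-0.71 ± 0.15). Among 18 other tested podosome genes, 2 were higher and 7 lower, and the 2 were Kank2 (46.2 ± 7.13 and 7.18 ± 0.974 CPM) and Myo1e (176 ± 6.91 and 30.8 ± 7.96 CPM).

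Between mature and immature macrophages, 0%, 20%, 33.3%, 16.7% and 11.1% of the same lists were called, against 14.9% of all genes. Counts higher and lower were 0 and 0 for Arp2/3, 2 and 0 for the Src family list (among them Fyn, at 120 ± 23.2 and 38.6 ± 14.1 CPM), and 4 and 1 for paralogs. Fmnl2 and Fmnl3 were higher in mature macrophages, by 1.90 ± 0.24 and 1.43 ± 0.21. The list of adhesion signalling had 2 higher and 1 lower (Arhgef7 0.72 ± 0.18, Arhgef6 -1.28 ± 0.21), and the other podosome genes 2 higher and 0 lower (Myo1e 1.25 ± 0.24, Cd44 1.15 ± 0.35). The call of Cd44 was lost without any 1 library other than mature library 2 (adjusted p up to 0.147). That of Arhgef7 was lost without immature library 1 or 3 or mature library 2 (up to 0.0845). For mature macrophages against precursors, the 5 lists had 4 higher and 0 lower, 2 and 5, 2 and 5, 6 and 5, and 4 and 4, in the order above, which is 44.4%, 70%, 46.7%, 61.1% and 44.4% called, against 54.3% of all genes.

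With IL4, the members called were more often higher than lower: of 33 tested, 10 were higher, 6 lower and 17 not called in IL4 against unstimulated macrophages, or 48.5% against 20.8% of all 8936 genes (10.5% higher, 10.3% lower). Their median log2 fold change was -0.030, against 0.006 over all genes. With the mouse number of the titles as a block, which the column names of this table do not carry, 20 were called, 12 higher and 8 lower, and 2883 of all genes, against 1855 without the block. The 5 members not tested were Fermt2, Bcar1, Tgfb1i1, Tln2 and Ilk. Ilk had 0 reads in all 6 libraries of this table, against 1019 to 3533 reads in each differentiation library, and Taf10, which overlaps it on the other strand, also had 0, so the level of Ilk is not known here. The same holds for Ap3m1, at 0 reads in this table, which overlaps Vcl. The 12 neutrophil markers summed to 5.62 to 19.9 CPM in IL4 and 10.3 to 26.4 CPM in unstimulated macrophages, and all 8 B cell markers were at 0. Megakaryocyte and stromal sums stayed within 23.3 CPM in all 6 libraries. The mast cell and eosinophil list, at 18.4 to 40.7 CPM with IL4 and 0.986 to 4.95 CPM without, consisted of Ccr3 alone, with the other 7 genes at 0 reads. Macrophage markers summed to 4089 to 5053 CPM in IL4 and 5110 to 7154 CPM in unstimulated macrophages, and proliferation genes to 70.2 to 182 and 238 to 372 CPM. The part of that lower proliferation signal in the members' results was not tested.

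**Figure D4:**
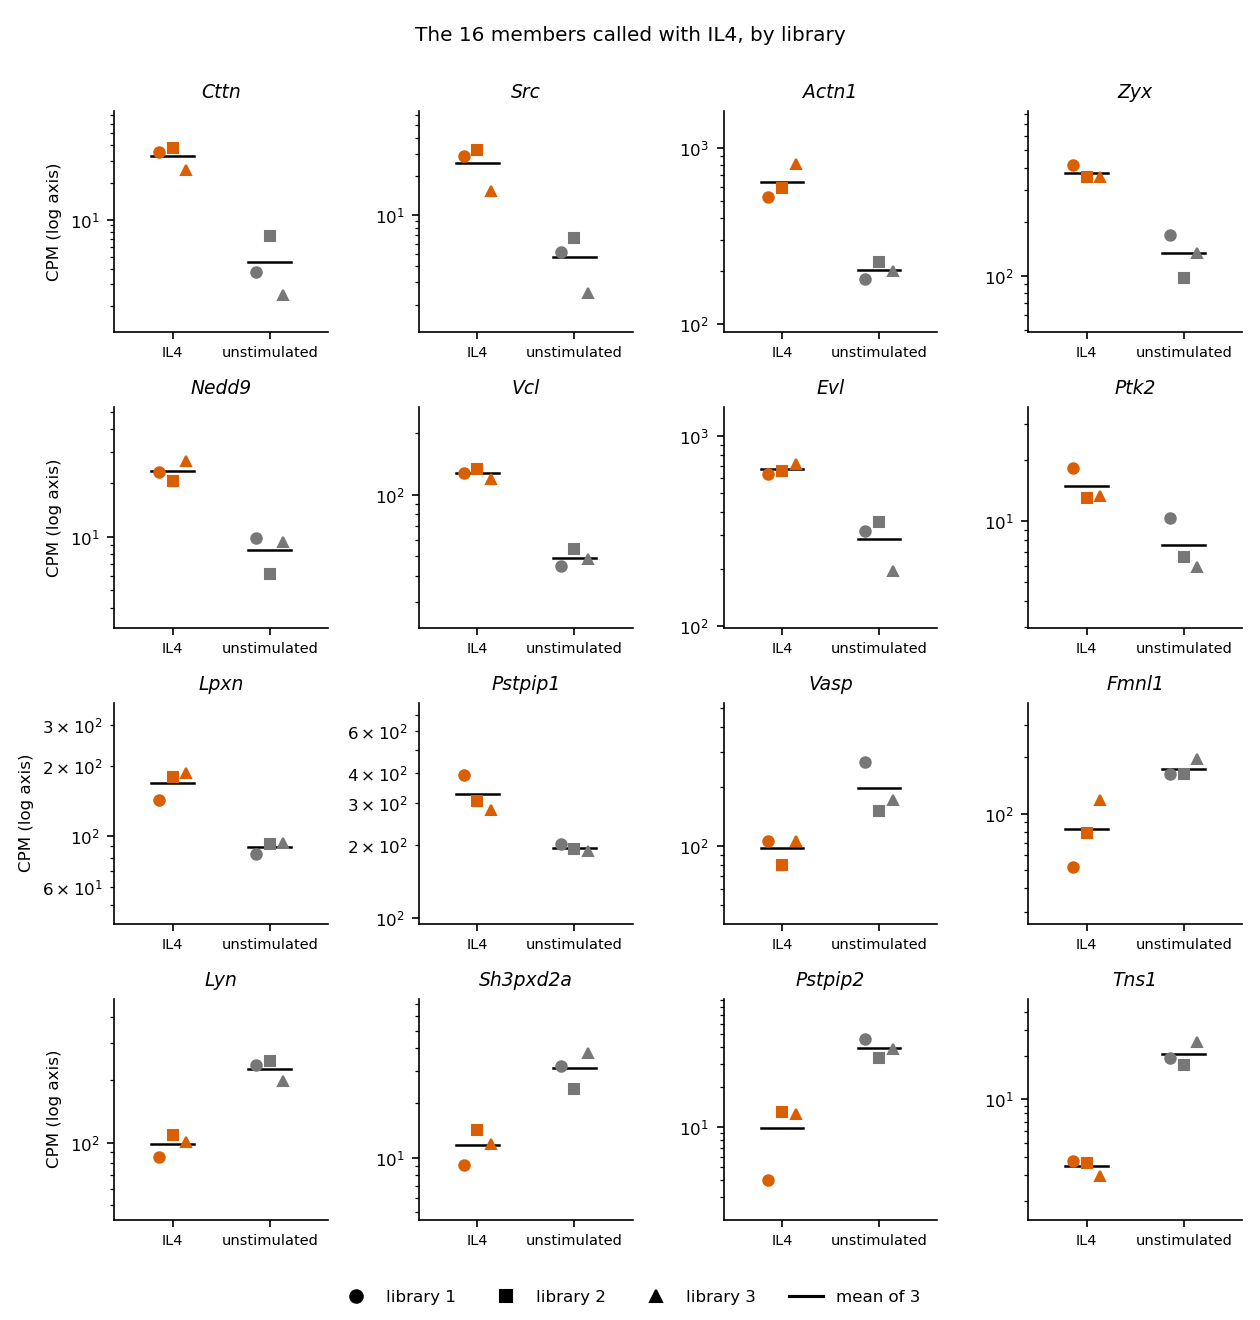
CPM (log axis, own range in each panel) of the 16 members called with IL4, in 3 IL4 libraries (orange) and 3 unstimulated libraries (grey), ordered from the highest to the lowest log2 fold change; symbols mark libraries 1 to 3 and lines the group means. The panels run from Cttn (25.4 to 38.1 and 2.47 to 7.42 CPM) to Tns1 (2.96 to 3.75 and 17.3 to 24.7 CPM). In none of them do the IL4 and unstimulated libraries overlap, which is not separate evidence, since the panels were chosen by the call.

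Of the 3 integrin linkers tested with IL4, 1 was called higher (33.3%, against 20.8% of all genes called either way). This was Vcl, which had 128, 134 and 119 CPM in IL4 macrophages, against 44.8, 54 and 48.3 CPM in unstimulated macrophages. Its log2 fold change was 1.38 ± 0.17 (adjusted p = 0.000181). Tln1 had 424, 587 and 838 CPM with IL4 and 301, 403 and 410 CPM without, and its difference of 0.73 ± 0.25 missed the threshold (adjusted p = 0.0584). All IL4 libraries lay above all unstimulated ones, so any pairing of libraries would show that direction. Tln1 was called by DESeq2 (0.0249), with the mouse number as a block (0.00232) and without IL4 library 1 (0.94, adjusted p = 0.00857). Over all fits that left out 1 library, its log2 fold change ran from 0.44 to 0.94, with adjusted p up to 0.237. Tln2 had 0 reads with IL4 and 12, 1 and 1 reads without. Fermt3 was not called (174 ± 13 and 216 ± 13.6 CPM).

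Of the 3 LIM adaptors tested, 2 were higher with IL4 (66.7%, against 20.8% of all genes called either way). Zyx had 415, 355 and 356 CPM in IL4 macrophages, against 168, 97.3 and 134 CPM in unstimulated macrophages, a log2 fold change of 1.49 ± 0.21 (adjusted p = 0.000506). Lpxn had 143, 179 and 187 CPM with IL4, against 83.3, 91.5 and 93 CPM without (0.92 ± 0.17, adjusted p = 0.00293). Neither gene's groups overlapped. Pxn was not called (94.9 ± 15.4 and 120 ± 21.6 CPM, -0.35 ± 0.20), nor were Lims1, Parvb and Parvg of the ILK complex, with log2 fold changes of -0.030 ± 0.17, -0.19 ± 0.16 and -0.51 ± 0.22.

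Within the Src family, Src rose and Lyn fell. Src had 28.9, 32.4 and 15.5 CPM in IL4 macrophages, against 5.16, 6.59 and 2.47 CPM in unstimulated macrophages, a log2 fold change of 2.48 ± 0.37 (adjusted p = 0.000739). Lyn had 85.4, 109 and 101 CPM with IL4, against 236, 246 and 198 CPM without (-1.20 ± 0.17, adjusted p = 0.000605). The groups did not overlap for either gene. Fgr was not called (-0.55 ± 0.48). The 250 bases before the start of Src (RefSeq, GRCm38.p6, chr2:157424043-157424292, + strand) are shown, without those of Lyn, because Src and Lyn were called in opposite directions, and capitals again mark the letters of the PU.1 core, 108 to 103 bases before the start.
Src: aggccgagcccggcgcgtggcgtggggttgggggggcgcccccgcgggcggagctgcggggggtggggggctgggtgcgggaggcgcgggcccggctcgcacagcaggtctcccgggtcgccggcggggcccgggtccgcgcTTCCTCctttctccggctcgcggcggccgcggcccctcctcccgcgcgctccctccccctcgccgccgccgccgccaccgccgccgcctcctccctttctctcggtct
The letters of a STAT6 site (TTC and GAA with 4 bases between, the same on both strands), named for the factor that IL4 activates, were not in this window or in those of Vasp, Evl and Vcl. They were held by 5.85% of all promoters and, counting a member if any of its promoters matched, by Lims1 among 28 members.

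The FAK gene Ptk2 had 18.2, 12.9 and 13.2 CPM in IL4 macrophages, against 10.3, 6.59 and 5.92 CPM in unstimulated macrophages (0.94 ± 0.28, adjusted p = 0.0334). The groups did not overlap, yet the call was lost without any 1 of unstimulated libraries 2 and 3 and the 3 IL4 libraries (0.0527 to 0.121), and by DESeq2 (0.0586). Ptk2b was not called (-0.14 ± 0.17). The docking protein gene Nedd9 had 23, 20.5 and 26.7 CPM with IL4, against 9.86, 6.18 and 9.37 CPM without (1.43 ± 0.24, adjusted p = 0.00134).

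Actn1 showed 528, 595 and 812 CPM in IL4 macrophages, against 181, 225 and 200 CPM in unstimulated macrophages, and at 117 CPM per kb with IL4 it came after Evl (227), Hcls1 (160) and Gsn (120). Its log2 fold change was 1.68 ± 0.20 (adjusted p = 0.000165), while Actn4 was not called (0.35 ± 0.23). Tns1 had 3.75, 3.64 and 2.96 CPM with IL4, against 19.2, 17.3 and 24.7 CPM without (-2.56 ± 0.26, adjusted p = 5.87e-05), the largest decrease among the members. Tns3 was not called (0.43 ± 0.18, adjusted p = 0.122) and was called higher with the mouse number as a block (0.0321).

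Cortactin and TKS5, both needed at podosomes and invadopodia, moved apart. Cttn had 35.3, 38.1 and 25.4 CPM in IL4 macrophages, against 3.75, 7.42 and 2.47 CPM in unstimulated macrophages, the largest increase among the members (2.95 ± 0.34, adjusted p = 0.00013). Sh3pxd2a had 9.1, 14.2 and 11.9 CPM with IL4, against 32.1, 23.9 and 37.5 CPM without (-1.43 ± 0.25, adjusted p = 0.00192). Neither gene's groups overlapped. Hcls1, at 297, 422 and 490 CPM with IL4 and 539, 615 and 548 CPM without, was not called (-0.49 ± 0.20, adjusted p = 0.113), but was called lower with the block (0.0185). Even at its IL4 level Cttn stood at 7.85 CPM per kb, against 160 CPM per kb for Hcls1. Sh3pxd2b was not called (0.43 ± 0.18).

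In the WASP module, Pstpip1 had 392, 305 and 281 CPM in IL4 macrophages, against 203, 193 and 189 CPM in unstimulated macrophages (0.74 ± 0.17, adjusted p = 0.0112). Pstpip2 had 4.02, 12.9 and 12.5 CPM with IL4, against 46.2, 33 and 39 CPM without (-2.03 ± 0.35, adjusted p = 0.00178). All IL4 libraries were above the unstimulated ones for Pstpip1 and below them for Pstpip2. Was, at 125 ± 8.02 CPM with IL4 and 174 ± 9.28 CPM without, just missed the threshold (-0.47 ± 0.16, adjusted p = 0.0539), with all IL4 libraries below the others, and was called lower with the block (0.0178). Wasl and Wipf1 were not called (0.006 ± 0.25 and -0.16 ± 0.17).

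Evl, the member with most reads per length in IL4 macrophages, had 634, 655 and 714 CPM with IL4, against 318, 352 and 196 CPM without (1.21 ± 0.22, adjusted p = 0.00251). Vasp had 105, 80.1 and 106 CPM with IL4, against 267, 150 and 170 CPM without (-1.01 ± 0.23, adjusted p = 0.0103). Fmnl1 had 51.7, 79.1 and 119 CPM with IL4, against 164, 164 and 196 CPM without (-1.07 ± 0.27, adjusted p = 0.0149). None of the 3 genes had overlapping groups, but the calls of Vasp and Fmnl1 were lost without IL4 library 2 (0.056 and 0.0548). Gsn and Svil were not called (-0.13 ± 0.20 and 0.075 ± 0.30).

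Ratios of related members did not overlap between the groups in 10 of 12 pairs. That count has no reference, since ratios of other genes were not measured. The pairs hold members called above, so their ratios are not separate evidence. Src over Lyn was -1.65, -1.83 and -2.78 with IL4, against -5.50, -5.23 and -6.20 without, a difference of 3.56 on the log2 scale. Cttn over Hcls1 was -3.79, -4.19 and -4.98 with IL4, against -7.74, -7.03 and -8.30 without, a difference of 3.37. Pstpip1 over Pstpip2 was higher by 2.86, and Vasp over Evl was lower, at -2.42, -2.86 and -2.58 with IL4 against -0.081, -1.06 and -0.031 without. In each of these the groups did not overlap, with an exact permutation p of 0.1, the smallest possible, and 0.12 adjusted over 12 pairs.

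With IL4, the shares called in the surrounding lists were 33.3%, 71.4%, 30.8%, 43.8% and 56.2%, against 20.8% of all genes. In the first list, 0 of 9 Arp2/3 subunits were higher and 3 lower with IL4, including Arpc2 (1121 ± 58.5 and 1966 ± 258 CPM) and Arpc3 (1039 ± 184 and 1853 ± 297 CPM), whose call was lost without IL4 library 2 (0.0597). Of 7 tested genes of the Src family list, 2 were higher and 3 lower, with the phosphatase gene Ptpn6 (183 ± 57.7 and 386 ± 69.3 CPM) among the lower ones. Of 13 tested paralogs, 3 were higher and 1 lower, with Lims2, which encodes PINCH-2, at 23.4 ± 8.53 and 3.08 ± 1.26 CPM and the capping protein gene Capg at 1636 ± 188 and 747 ± 13 CPM. Of 16 tested genes of adhesion signalling, 2 were higher and 5 lower (Dock2 1.27 ± 0.19, Arhgef7 -1.12 ± 0.17), and of 16 other tested podosome genes 5 were higher and 4 lower (Cd44 1.44 ± 0.18, Kank2 -1.72 ± 0.23).

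The authors' deposited tables of genes with an adjusted p under 0.05 held 28, 5, 24 and 17 members for immature macrophages against precursors, mature against immature macrophages, mature macrophages against precursors and IL4 against unstimulated macrophages. Of these, 26, 5, 24 and 16 were also called here. Those in the authors' deposited tables alone were Parvb and Wipf1 in the first comparison and Tln2 with IL4. Nedd9, Parvg, Pxn and Svil, called here in mature against immature macrophages, were not in that table.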

How the data were processed

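RNA of 15 libraries (5 groups of 3) was sequenced on an Ion Torrent instrument. HISAT2 2.0.5, edgeR and the builds GRCm38.p6 and GRCm39.p6 are named in the submitters' processing notes, with no role given; neither the counting program nor its strand setting is given in the sources used. Deposited by the authors were tables of unnormalized counts of reads per gene, log2 RPM values whose sorted values are nearly the same in every library, and lists of genes with adjusted p-values under 0.05. The log2 RPM values, as deposited by the authors, served as an alternative. Rows without a gene name held 0.338% and 0.0148% of the reads of the differentiation and IL4 tables and were left out.

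Counts were fitted per table with edgeR 4.0.16 (R 4.3.3; TMM, filterByExpr with a minimum count of 10, quasi-likelihood test) over all genes passing the filter, with Benjamini-Hochberg adjustment and a threshold of 0.05. The fits were tested on simulated counts of only the groups compared, with the same spread for all genes. No simulated library stood apart, so the simulation does not cover cases such as mature library 3. Alternatives were DESeq2 1.42.0, limma 3.58.1 on log2 RPM, RLE scaling, other filters, only the libraries compared, the mouse number as a block, each library left out, and an adjusted p under 0.001. Members matched by symbol in both tables. Other listed genes that carry older symbols in the IL4 table were matched by Ensembl ID. Exonic lengths came from GENCODE M21. Ratios of related members used a pseudocount of 0.1 and two-sided exact permutation tests, adjusted over the pairs that could be measured (14, or 12 with IL4).

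The reported fits carry no block. The titles give the same mouse numbers in every group, and the block fits use them as pairs. The columns of the IL4 table carry other codes, of a meaning not given, and were tied to titles through the labels' descriptions. Deviations from group means correlated at 0.591, 0.175 and 0.413 between IL4 and unstimulated libraries of the same number, and at -0.129 to 0.165 among the differentiation stages. Between libraries of different numbers they correlated at -0.487 to 0.247 and at -0.128 to 0.139. IL4 library 2 thus correlated more with unstimulated library 3 (0.247) than with unstimulated library 2 (0.175).

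Members, lists and tests were chosen with earlier results of these data known. Values per library are given for members called with at least a 2-fold change and at least 5 CPM, at most 3 per role and comparison, and for related members; from each surrounding list, up to 2 called genes are named, in order of p, if they reach 5 CPM. Some genes of these lists are not reported here by name. Some further members are given per library after their values were seen. SD values cover the spread between the 3 libraries of a group. SE values come from the fit of all libraries of a table, so in the differentiation table the group outside a comparison also enters them.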

Additional observations from a re-analysis of the deposited data

How the results depend on the processing

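Of the members called, 21 of 26 (immature macrophages against precursors), 5 of 9 (mature against immature macrophages), 21 of 24 (mature macrophages against precursors) and 13 of 16 (IL4) stayed called under every alternative at the 0.05 threshold, and 0 changed direction. At an adjusted p under 0.001, 15, 2 and 7 members were called in the first, second and IL4 comparisons, and 2185, 210, 2966 and 520 of all genes in the 4 comparisons. For mature against immature macrophages, DESeq2 called 14 members, and a fit of the 6 libraries alone called 1245 genes. With the mouse number as a block, 25, 9, 26 and 20 members were called, and 6142, 1547, 6861 and 2883 genes. Leaving out 1 library gave 5 to 15 members and 1007 to 2702 genes for mature against immature macrophages, the most without mature library 3 and the fewest without immature library 2. The other comparisons gave 23 to 26, 21 to 25 and 13 to 16 members. The log2 fold change of Wipf1 in mature against immature macrophages was -0.90 without mature library 3 and 0.35 without mature library 1. With a pseudocount of 0.5, the difference in the log2 ratio of Tln1 over Tln2 between those stages was 0.011, and that of Pxn over Tgfb1i1 between mature macrophages and precursors was -0.45; both pairs hold a gene with few reads, and the causes were not tested. With 3 libraries a group and 2408531 reads in the smallest library, members of a few CPM rest on few reads.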
